A study of Mus musculus with 12 samples.

Results

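Gpm6a, Chodl, Tmem255a and Abi3bp are 4 of the 18193 genes with a single symbol on the array, chosen by their measured level, which in dissected superior cervical ganglion (SCG) tissue was 16-fold or more above that of SCG cells in flat culture. They were measured by 9 of the 45037 probe sets tested, 2 for Gpm6a, 1 for Chodl, 4 for Tmem255a and 2 for Abi3bp, and all 9 are described. The SCG is a sympathetic ganglion of the neck. Total RNA of CD1 mouse SCG was measured on 12 Affymetrix Mouse Genome arrays with 4 biological replicates in each of 3 groups. Tissue is ganglion dissected and not cultured. In 3D, dissociated SCG cells had grown for several days in porous polystyrene scaffolds. In 2D, they had grown for the same time on a flat dish, given as polystyrene in the labels and as glass in the methods. Both surfaces were coated with collagen, and both media held nerve growth factor and serum. The labels give an age of 21 days for all 3 groups, whereas the methods speak of neonatal mice. The ganglia were dissociated with collagenase before plating, and no step that selects neurons is described. The values are log2 expression levels made with the RMA algorithm, on which a step of 1 is a doubling. Such values carry no detection call, and the number of arrays limits their precision.

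The products of these genes differ in kind. Gpm6a encodes the neuronal membrane glycoprotein M6a, a multi-pass protein that induces filopodia and neurites in cultured neurons. Chodl encodes chondrolectin, a single-pass membrane protein with a C-type lectin domain whose closest relative is layilin, and in the mouse spinal cord it marks fast motor neurons. Tmem255a encodes a multi-pass membrane protein of which little is known. Abi3bp encodes a secreted matrix protein with fibronectin type III repeats, named for its binding to ABI3, an adaptor of the actin cytoskeleton, and it is made by fibroblasts and other mesenchymal cells.

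The letters before the transcription starts are shown because the 4 genes were chosen for the same rise, and they let the starts be compared. RefSeq promoters (mouse build GRCm38.p6) were at hand for 3 of the 4 genes, Gpm6a with 2 starts and Chodl and Tmem255a with 1 each; that of Abi3bp is not shown. Each run reads 5′ to 3′ on the strand of the gene, with CpG dinucleotides and the motif match in capitals, and stops before the annotated start, or at Chodl and Tmem255a before the outermost one. The first Gpm6a start lies behind chr8:54779184-54779433 (plus strand), and the second, which is inside the gene, behind chr8:54954478-54954727 (plus strand). The Chodl run is chr16:78930698-78930840 (plus strand) and the Tmem255a run is chrX:38252497-38252731 (minus strand).
Gpm6a, first start: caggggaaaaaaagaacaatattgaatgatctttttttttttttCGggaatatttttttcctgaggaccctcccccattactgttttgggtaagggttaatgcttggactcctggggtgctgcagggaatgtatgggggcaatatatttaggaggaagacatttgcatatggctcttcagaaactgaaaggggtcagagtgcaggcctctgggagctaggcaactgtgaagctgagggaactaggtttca
Gpm6a, second start: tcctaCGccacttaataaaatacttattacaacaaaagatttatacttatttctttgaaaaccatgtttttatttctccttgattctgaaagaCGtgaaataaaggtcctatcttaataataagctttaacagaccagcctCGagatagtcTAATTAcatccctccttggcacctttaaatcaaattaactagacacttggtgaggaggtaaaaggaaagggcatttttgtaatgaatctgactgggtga
Chodl: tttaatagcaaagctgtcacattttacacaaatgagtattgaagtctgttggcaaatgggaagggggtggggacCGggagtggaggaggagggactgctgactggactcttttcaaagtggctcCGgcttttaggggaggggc
Tmem255a: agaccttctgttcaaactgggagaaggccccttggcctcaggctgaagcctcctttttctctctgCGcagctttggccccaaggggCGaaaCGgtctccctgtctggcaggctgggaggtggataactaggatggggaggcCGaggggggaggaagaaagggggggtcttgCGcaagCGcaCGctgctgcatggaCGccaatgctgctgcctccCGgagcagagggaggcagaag
The starts had little in common in base composition. In the 250 bases before the start, GC content was 44.4% and 33.6% at the Gpm6a starts, 52.0% at Chodl and 62.4% at Tmem255a, against a median of 52.4% over 32851 mouse promoters. The same windows held 1 and 3 CpG dinucleotides at Gpm6a, 5 at Chodl and 9 at Tmem255a, against a median of 6. At Chodl and Tmem255a the window includes bases past the outermost start, which are not printed. The 143 printed bases of Chodl hold 2 CpG and the 235 of Tmem255a hold 9. Motifs were searched on both strands: GATAAG (bound by GATA factors), CAGCTG (an E-box), TAATTA (bound by homeodomain proteins) and TGACGTCA (the cyclic AMP response element). The single match was TAATTA, 99 bases before the second Gpm6a start. TAATTA stands in 4.84% of all promoters, GATAAG in 6.55%, CAGCTG in 13% and TGACGTCA in 1.55%. A match is a run of letters, and no use of it was measured here.

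All 9 probe sets were higher on every tissue array than on any culture array. Because tissue against 2D chose the genes, this is a description, as is tissue against 3D, which uses the same tissue arrays. Among all 45037 probe sets, 18% stood entirely higher in tissue than in 2D, and 20.9% stood entirely higher in tissue than in 3D. A rise of 16-fold or more over 2D was shown by 9 genes (0.0495%) and over 3D by 12 genes (0.066%). Ordered by their difference from 2D, Tmem255a was at rank 4 of 18193, Gpm6a at rank 6, Abi3bp at rank 7 and Chodl at rank 9. Chodl was thus the last gene inside the limit with 16.5-fold, and the next gene outside was Chrna7, a nicotinic receptor subunit, with 14.3-fold. The other genes inside were Myh1, Cldn1, Cdh1, Tenm2 and Aplnr. Against 3D, Tmem255a was at rank 5, Chodl at rank 11, Gpm6a at rank 14 and Abi3bp at rank 27. In bulk samples, fewer cells of a type and less RNA per cell cannot be told apart.

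For Gpm6a, the neuronal membrane glycoprotein, the brighter probe set (1456741_s_at) read 7.87, 8.15, 8.05 and 6.88 in tissue replicates 1 to 4, 4.03, 3.73, 3.90 and 3.81 in 3D and 3.50, 3.41, 3.52 and 3.59 in 2D. Tissue replicate 4 was the lowest of its group and still 2.85 above the highest 3D array. The difference was 4.23 on the log2 scale over 2D (18.8-fold, 95% interval 12.4 to 28.6) and 3.87 over 3D (14.6-fold, 9.63 to 22.2). In culture this probe set lay between the 3.21 and 12.8 percentiles of all probe sets on its array, and in tissue at a median percentile of 72.1. The second probe set (1426442_at) read 6.18, 4.96, 4.74 and 5.56 in tissue, 4.16, 4.04, 3.97 and 4 in 3D and 3.65, 3.80, 3.93 and 3.75 in 2D. Its difference was smaller, 1.58 over 2D (2.98-fold) and 1.32 over 3D (2.49-fold). Both probe sets moved the same way, by sizes that differ by more than their intervals. Which transcripts of the gene each of them reads was not analysed here.

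Gpm6a also stood apart between the cultures. All 4 3D arrays were above all 4 2D arrays at both probe sets, by 0.36 ± 0.09 (SE) at the brighter and by 0.26 ± 0.08 at the other. The exact two-sided permutation p was 0.0286 at each, the smallest that 4 arrays against 4 can give. Neither passed after adjustment over all probe sets with limma (adjusted p = 0.198 and 0.305), a threshold that 0.0133% of all probe sets and 0.0165% of all genes passed as higher in 3D, where 7.57% of all genes were higher at an unadjusted p under 0.05. The 2D arrays were part of the choice of the genes, and a choice that favours low 2D values also favours a positive difference of 3D from 2D. In culture both probe sets lay near the floor of the scale. The brighter lay between the 3.21 and 12.8 percentiles of its array, and the other between the 7.01 and 14.9 percentiles. Of all probe sets, 3.91% stood entirely higher in 3D than in 2D, and of all genes 4.49%. A 1.29-fold difference at the brighter probe set is small beside the 14.6-fold between tissue and 3D.

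Chodl, the lectin-domain membrane protein, read 9.34, 9.90, 10.47 and 9.31 in tissue, 5.70, 5.74, 5.85 and 5.64 in 3D and 5.52, 5.6, 6 and 5.71 in 2D. The lowest tissue array was 3.31 above the highest culture array, and the cultures overlapped. The difference was 4.05 over 2D (16.5-fold, 95% interval 10.9 to 25.1) and 4.02 over 3D (16.3-fold, 11 to 24.1). Between 3D and 2D it was 0.03 (95% interval -0.23 to 0.28, limma adjusted p = 0.953, exact permutation p = 0.886), so that a difference above 1.21-fold in favour of 3D lies outside the interval. In culture the probe set lay between the 37.6 and 44.4 percentiles of its array. RMA values cannot tell a low signal from none.

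Tmem255a had the highest fold of the 4 genes at its brightest probe set, but the lowest, 2.85 on the log2 scale over 2D, when the probe sets of each gene were averaged. Its brightest probe set (1436948_a_at) read 10.45, 11.69, 11.99 and 9.98 in tissue, 6.48, 6.49, 5.94 and 6.67 in 3D and 6.95, 6.05, 7.31 and 5.57 in 2D. The 2D arrays spread over 1.74, more than the 0.73 of the 3D arrays, which lay inside the range of 2D. The difference was 4.56 over 2D (23.5-fold, 95% interval 10.3 to 53.6) and 4.63 over 3D (24.8-fold, 12.7 to 48.6). Between 3D and 2D it was -0.08 (95% interval -0.90 to 0.75, limma adjusted p = 0.956, exact permutation p = 0.857), an interval too wide to set a narrow bound. In culture this probe set stood near the middle of its array, at median percentiles of 51.8 in 3D and 51.3 in 2D, and the other 3 probe sets of the gene at median percentiles between 20.1 and 24.7. A percentile does not separate signal from background, so that whether the gene was silent in culture cannot be read from these values.

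The other Tmem255a probe sets gave the same direction with smaller sizes. The probe set 1439006_x_at lay between 7.07 and 8.61 in tissue, between 4.3 and 4.85 in 3D and between 4.07 and 5.17 in 2D, 10.5-fold higher in tissue than in 2D. The probe set 1456596_at lay between 6.71 and 8.13 in tissue, between 4.50 and 4.97 in 3D and between 4.17 and 5.28 in 2D, 6.55-fold higher in tissue than in 2D. The fourth (1437137_at) was 1.68-fold higher in tissue, with 5.12 to 5.79 in tissue, 4.69 to 4.84 in 3D and 4.43 to 4.87 in 2D. The 4 probe sets of this gene thus ran between 1.68-fold and 23.5-fold. The suffix _x_at marks a probe set with probes that may also bind other transcripts.

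Abi3bp, the matrix protein, had the widest spread in tissue. Its brighter probe set (1427054_s_at) read 10.32, 8.56, 7.72 and 9.67 in tissue, 5.45, 6.03, 5.18 and 5.46 in 3D and 5.49, 5.26, 4.38 and 4.36 in 2D. Tissue replicates 1 and 4 were the high ones, and 2D replicates 3 and 4 the lowest of the cultures. The difference was 4.2 over 2D (18.3-fold, 95% interval 7.83 to 42.8) and 3.54 over 3D (11.6-fold, 5.26 to 25.7). The second probe set (1427053_at) read 8.73, 5.96, 4.98 and 7.60 in tissue, 3.65, 3.86, 3.47 and 3.59 in 3D and 3.69, 3.55, 2.87 and 3.15 in 2D, 11.3-fold higher in tissue than in 2D. In culture the second probe set lay at median percentiles of 6.18 in 3D and 2.88 in 2D. The brighter one lay at 36.2 in 3D and 24.8 in 2D. Between 3D and 2D the brighter probe set differed by 0.66 (95% interval -0.01 to 1.32, limma adjusted p = 0.443, exact permutation p = 0.2) and the other by 0.33 (limma adjusted p = 0.530). The cultures overlapped at both.

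**Figure D1:**
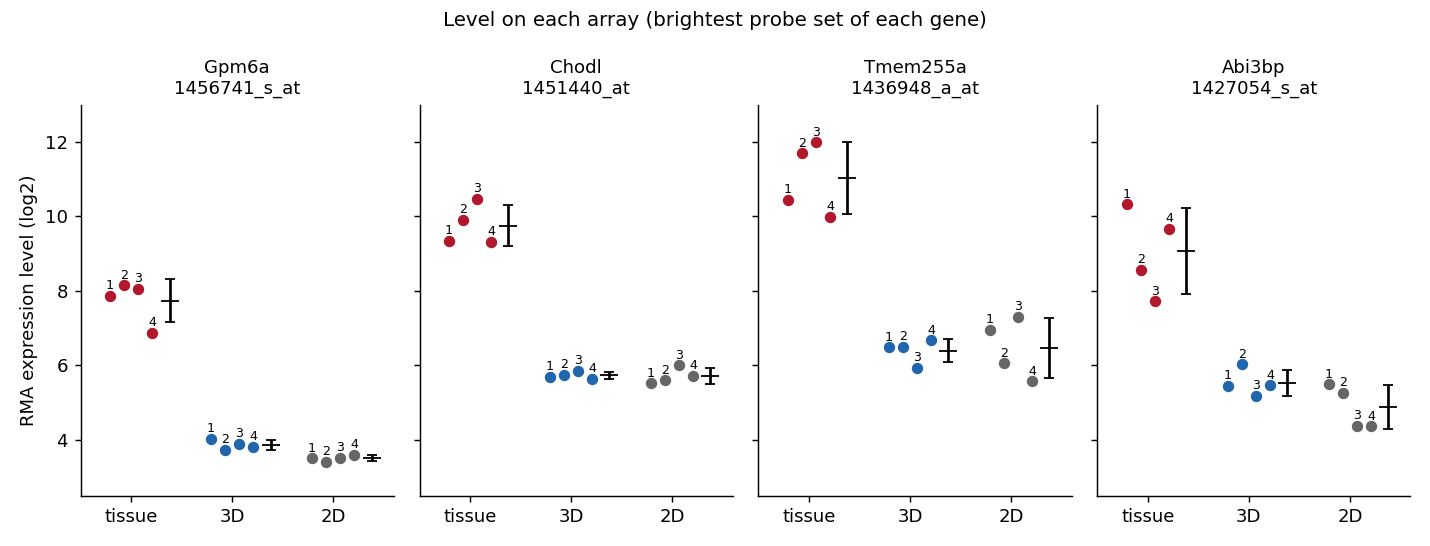
Level of the brightest probe set of each gene (RMA, log2) on each of the 12 arrays, by group, with replicate numbers; bars are mean and SD of 4 arrays. All tissue arrays lie above all culture arrays for each gene, the 3D arrays of Gpm6a lie above its 2D arrays, and Abi3bp spreads from 7.72 to 10.32 in tissue.

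**Figure D2:**
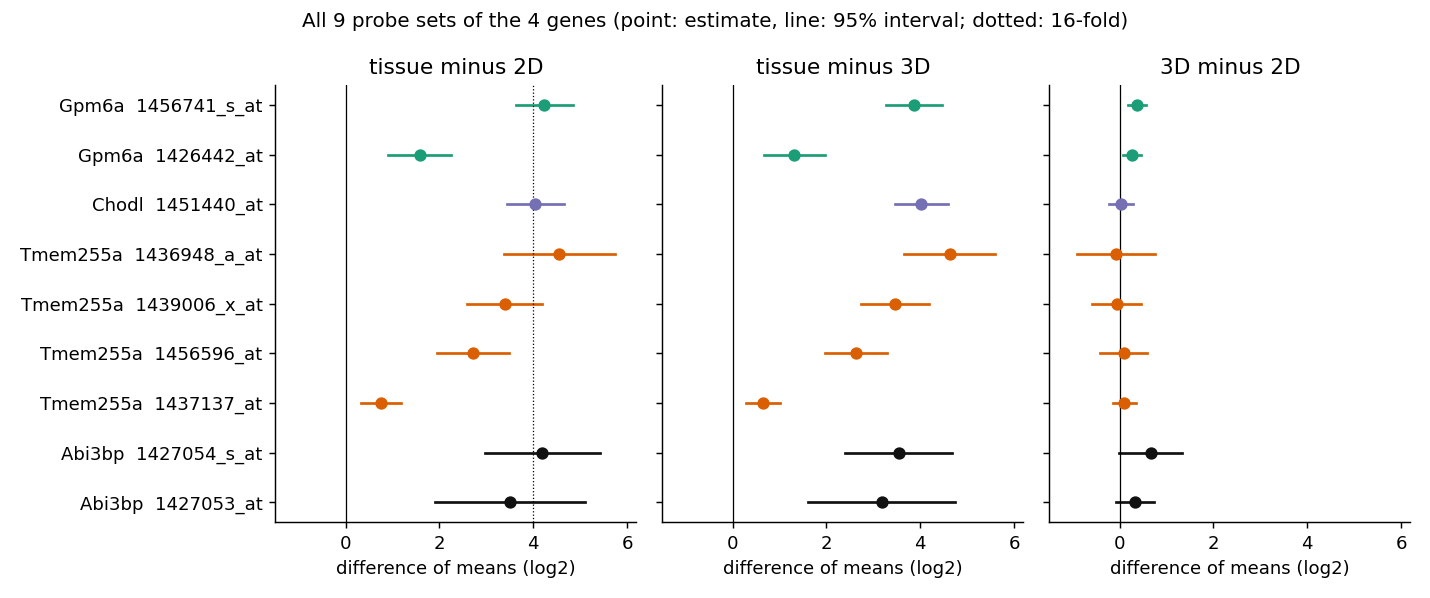
Difference of group means (log2) for all 9 probe sets, with 95% intervals from limma, for tissue minus 2D, tissue minus 3D and 3D minus 2D; the dotted line marks 16-fold, the limit by which the genes were chosen. Differences of tissue from 2D run from 0.75 to 4.56, and those of 3D from 2D from -0.08 to 0.66.

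The tissue arrays differed among themselves, and these 4 genes did so in opposite ways. The array carries control probe sets for the 3′ end and the 5′ end of Gapdh and b-Actin, whose difference grows as RNA is degraded or copied incompletely. For Gapdh it was 1.1, 3.45, 3.05 and 1 in tissue replicates 1 to 4, against 0.48 to 0.83 in 3D and 0.36 to 1.27 in 2D. For b-Actin it was 1.63, 3.55, 4.21 and 2.21 in tissue, against 1.12 to 1.47 in 3D and 1.17 to 1.89 in 2D. Tissue replicates 2 and 3 thus stood apart from all other arrays on both controls. Their overall spread was also narrower, with an SD over all probe sets of 2.14 and 1.93, against 2.31 and 2.32 in tissue replicates 1 and 4 and 2.35 to 2.42 in the cultures.

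The members moved with that split. Tissue replicates 2 and 3 were higher than tissue replicates 1 and 4 by 0.73 at the brighter Gpm6a probe set, by 0.86 at Chodl and by 1.63 at the brightest Tmem255a probe set. The other 6 probe sets went the other way, by -1.02 at the second Gpm6a probe set, by -0.35, -1 and -0.43 at the other 3 of Tmem255a and by -1.86 and -2.7 at those of Abi3bp. Probe sets of 1 gene therefore ran in opposite directions for Gpm6a and for Tmem255a. With tissue replicates 1 and 4 alone, the rise over 2D was 14.6-fold for Gpm6a, 12.3-fold for Chodl and 13.4-fold for Tmem255a, all under the limit of 16-fold, and 34.8-fold for Abi3bp. With tissue replicates 2 and 3 alone it was 24.2-fold, 22.3-fold and 41.4-fold for the first 3 genes and 9.63-fold for Abi3bp. The part of RNA quality in these sizes was not tested. The direction was the same in both pairs of tissue replicates at all 9 probe sets, as it had to be with every tissue array above every culture array.

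Markers of other cells also varied between the tissue arrays. Their counts in tissue against 2D stand beside 9.87% of all genes that passed as higher and 14.3% as lower. The median level of 13 skeletal muscle genes, each centred on its 12-array mean, was -0.78, 2.7, 0.85 and 3.02 in tissue replicates 1 to 4, against -0.80 to -0.70 in 3D and -0.81 to -0.58 in 2D. Of these 13 genes, 4 were higher, 0 lower and 9 did not pass in tissue against 2D (limma adjusted p). Myh1 lost its call when 1 of 2D replicates 1, 2 and 4 and tissue replicate 2 was left out (adjusted p between 0.0506 and 0.0641). Tnnc2 lost its call without any 1 of the 2D replicates or of tissue replicates 2, 3 and 4 (0.0600 to 0.101). On tissue replicate 1 the median of the muscle list was level with the cultures, though not every gene of it was. There the differences from 2D, part of the values that chose the genes, were 4.37 for Gpm6a, 3.63 for Chodl, 3.98 for Tmem255a and 5.45 for Abi3bp. The median of 15 fibroblast and nerve sheath genes was 0.69, 0.08, 0.08 and 0.68 in tissue, against -0.56 to 0.28 in 3D and -0.69 to -0.05 in 2D. In tissue against 2D, 6 of the 15 were higher, 1 lower and 8 did not pass. The median of 12 endothelial genes was 0.90, 0.65, 0.04 and 1.1 in tissue and below 0 in every culture, with 7 of the 12 higher, 1 lower and 4 not past the threshold in tissue against 2D. The median of 12 macrophage genes was 1.27, 0.19, 0.36 and 1.02 in tissue, against -0.66 to -0.20 in 3D and -1.45 to 1.01 in 2D, with 3 higher and 1 lower against 2D. Tissue replicates 1 and 4 were thus both above tissue replicates 2 and 3 in the fibroblast, endothelial and macrophage lists, as they were in the satellite glia, Schwann cell, pericyte, pan-neuronal and sympathetic lists, and Abi3bp was high on the same arrays. The opposite split, which the brightest probe sets of Gpm6a, Chodl and Tmem255a also had, was seen in other lists. The median of 9 lymphocyte genes was -0.18, 0.88, 0.72 and -0.03 in tissue, against -0.36 to 0 in 3D and -0.39 to -0.14 in 2D, with 0 of the 9 past the threshold against 2D. That of 6 adipocyte genes was 0.15, 0.59, 0.55 and 0.24 in tissue, against -0.36 to -0.09 in 3D and -0.37 to -0.16 in 2D, with 2 higher. Epithelial genes and 14 genes of organs absent from the samples split in the same way, the absent ones with medians of -0.14, 0.06, 0.39 and 0.03 in tissue, against -0.06 to 0.01 in 3D and -0.10 to 0.04 in 2D. So did 8 motor neuron genes, Chodl aside (-0.03, 0.68, 0.74 and -0.03 in tissue). The median of 12 cell cycle genes was -2.59, -1.84, -1.49 and -2.7 in tissue, against 0.87 to 1.59 in 3D and 0.58 to 1.45 in 2D. Of these 12 genes, 11 were lower and 0 higher in tissue against 2D. Both splits set tissue replicates 1 and 4 against 2 and 3, as the 3′ and 5′ controls did. Cell content and RNA quality therefore cannot be told apart in them. The part of these cells in the levels of the 4 genes was not tested.

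The sympathetic identity of the samples was read from a list of 16 measured sympathetic neuron genes. Th, the rate-limiting enzyme of noradrenaline synthesis, read 13.06, 12.64, 11.05 and 13.45 in tissue, 10.63, 9.93, 9.44 and 9.89 in 3D and 11.89, 11.58, 12.44 and 9.59 in 2D. The list median, centred in the same way, was 1.44, 0.96, -0.02 and 1.60 in tissue, against -1.19 to -0.11 in 3D and -1.21 to 0.50 in 2D. Tissue replicate 3, the lowest of its group in this list, was the highest of all arrays for Chodl and for the brightest Tmem255a probe set. At the Tmem255a probe sets 1439006_x_at and 1456596_at the same replicate was instead the lowest tissue array (7.07 and 6.71). Its b-Actin control difference (4.21) was also the largest of all arrays. In tissue against 3D, 12 of the 16 genes were higher, 0 lower and 4 did not pass (limma adjusted p). There 15.5% of all genes passed as higher and 20.1% as lower. In tissue against 2D, 6 of the 16 genes were higher, 0 lower and 10 did not pass (limma adjusted p), with Gata2 at 2.45 (adjusted p = 3.78e-04), Tfap2b at 2.25 (9.07e-04) and Isl1 at 2.37 (0.00240). Of all genes, 9.87% passed as higher and 14.3% as lower in that comparison. The median difference of the list was 1.18, against 0.03 over all genes. With tissue replicate 1 alone, an arm of 1 array in which neither passed, the difference was 2.18 for Tfap2b and 2.11 for Isl1.

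The nearest measured relatives of Gpm6a and Chodl were not higher in tissue. Gpm6b, which encodes the related membrane glycoprotein M6b, averaged 12.19 ± 0.52 in tissue, 12.56 ± 0.03 in 3D and 12.21 ± 0.27 in 2D (SD, n = 4 arrays each). Its difference was -0.02 from 2D (95% interval -0.62 to 0.59, limma adjusted p = 0.966) and -0.37 from 3D (-0.91 to 0.17, adjusted p = 0.246). A second Gpm6b probe set (1425942_a_at) was 2.85 lower in tissue replicates 2 and 3 than in tissue replicates 1 and 4, so that its mean depends on those arrays. Tmem255b was not analysed here.

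Layn, the layilin gene related to Chodl and a hyaluronan receptor, went the other way. It averaged 6.98 ± 0.18 in tissue, 8.05 ± 0.14 in 3D and 8.45 ± 0.42 in 2D (SD, n = 4 arrays each). It fell by 1.47 in tissue against 2D (limma adjusted p = 0.00291) and by 1.07 against 3D (adjusted p = 7.47e-04). Its second probe set differed by -1.25 (adjusted p = 0.00590) and -1.05 (adjusted p = 0.00243). With tissue replicate 1 alone, an arm of 1 array in which the call was lost, the difference from 2D was -1.23.

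Other matrix proteins with fibronectin type III repeats moved mostly the other way from Abi3bp. With ABI3 itself, 9 genes were measured. In tissue against 2D, where 9.87% of all genes passed as higher and 14.3% as lower, 1 was higher, 5 were lower and 3 did not pass. Their median was -1.86, beside 0.03 over all genes. Tnc, the tenascin of developing and injured tissue, fell by 2.75 (limma adjusted p = 2.19e-04), Fndc1 by 2.27 (0.00230) and Col12a1, a collagen of the fibril surface, by 1.86 (0.00474). Fn1, fibronectin, differed by -2.40 (0.0181) and Col14a1 by -2.06 (0.0398), and with tissue replicates 1 and 4 alone neither passed (-1.48 with adjusted p = 0.0754, and -1.37 with 0.215). Fn1 also failed when 2D replicate 2, 2D replicate 4 or tissue replicate 2 was left out (adjusted p = 0.0552, 0.0521 and 0.0597 in this order), and Col14a1 when 1 of 2D replicates 1, 2 and 4 and tissue replicates 2 and 3 was left out (adjusted p between 0.0785 and 0.110). Tnxb, a tenascin of loose connective tissue, rose by 1.76 (adjusted p = 0.0119), the one gene of the list that was higher as Abi3bp was. Abi3 (-0.02, adjusted p = 0.909), Tnr (0.60) and Tnn (0.14) did not pass.

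In tissue against 3D, 2 of these 9 genes were higher, 4 lower and 3 did not pass, where 15.5% of all genes passed as higher and 20.1% as lower. Tnc fell by 3.38 (limma adjusted p = 2.58e-05), Fn1 by 2.94 (0.00167), Col14a1 by 2.80 (8.21e-04) and Col12a1 by 2.51 (5.10e-04). Tnr, the tenascin of nervous tissue, rose by 1.36 (0.00798). Tnxb rose by 1.32 (0.0433), a call that was lost without tissue replicate 1 (adjusted p = 0.0800), without tissue replicate 4 (0.0803) and without 3D replicate 1 (0.113), 2 (0.0729) or 4 (0.103), as well as with the replicate number as a block (0.0911).

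**Figure D3:**
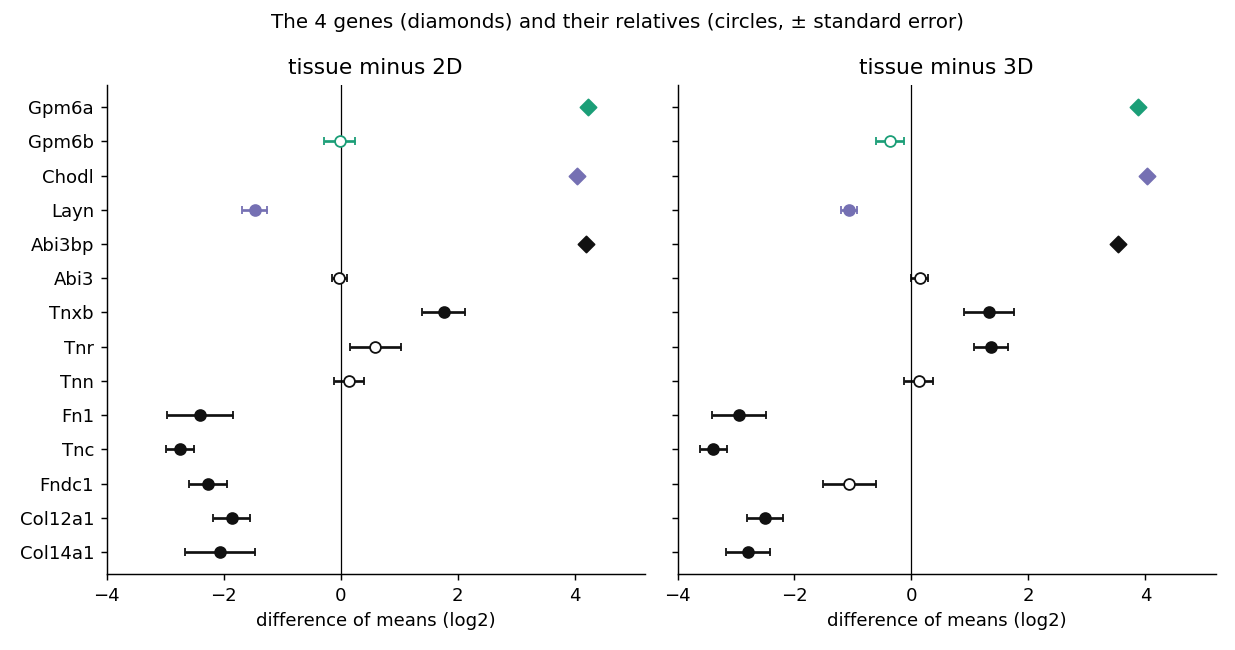
Difference of group means (log2) between tissue and each culture for 3 of the 4 genes (diamonds, no test) and their relatives (circles, ± SE from limma; filled where the adjusted p is under 0.05). Gpm6b and Abi3 lie near 0, Layn and 5 matrix genes lie below 0 against 2D, and Tnxb lies above 0.

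Genes of the processes that Gpm6a and Chodl are known for were read from lists. In tissue against 2D, 9.87% of all genes passed as higher and 14.3% as lower. Of 14 measured membrane and cytoskeleton genes of growth cones and filopodia, Gpm6a aside, 2 were higher, 1 was lower and 11 did not pass in tissue against 2D, with a median of -0.03 beside 0.03 over all genes. Those higher were Coro1a, an actin regulator that is also abundant in leukocytes (1.37, limma adjusted p = 0.0262), and Stmn3, a microtubule regulator (1.27, 0.0299). With tissue replicates 1 and 4 alone neither passed, with 0.80 for Coro1a (adjusted p = 0.0975) and 1.26 for Stmn3 (0.108). Coro1a also failed when 1 of 2D replicates 1, 2 and 4 and tissue replicate 2 was left out (adjusted p between 0.0518 and 0.0810), and Stmn3 when 2D replicate 2 (0.0622) or tissue replicate 2 (0.0775) was. Marcksl1, a membrane-bound actin regulator, fell by 1.02 (0.00353). In tissue against 3D, 4 of the 14 genes were higher, 3 lower and 7 did not pass, where 15.5% of all genes passed as higher and 20.1% as lower.

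Motor neuron genes were read beside the same shares of all genes (9.87% higher, 14.3% lower). Of 8 measured genes that mark motor neurons or their subtypes, Chodl aside, 3 were higher, 1 was lower and 4 did not pass in tissue against 2D, with a median of 0.45. Those higher were Isl1 (2.37) and Rbfox3 (2.01, adjusted p = 0.00172), which other neurons express too, and Sv2a, a synaptic vesicle protein (1.62, 0.00785). Mmp9, a matrix protease, differed by -1.70 (limma adjusted p = 0.0376), and did not pass with 1 of 2D replicates 2, 3 and 4 and tissue replicates 1, 2 and 4 left out (adjusted p between 0.0594 and 0.101), nor with cyclic loess (0.0645) or centring (0.0557). With tissue replicate 1 alone, an arm of 1 array in which none of Isl1, Rbfox3 and Sv2a passed, their differences were 2.11, 1.84 and 1.36.

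Likeness between the 4 genes was measured as the root mean square difference of their log2 levels over the 12 arrays, each centred on its own mean, so that 0 is the same pattern. The value was 0.305 between Gpm6a and Chodl, 0.557 between Chodl and Tmem255a and 0.619 between Gpm6a and Tmem255a. Abi3bp stood further off, at 0.871 from Gpm6a, 0.986 from Chodl and 1.23 from Tmem255a. Each gene was taken at its brightest probe set here. At these probe sets, the first 3 genes were higher in tissue replicate 3 than in tissue replicate 4, and Abi3bp was lower. The other probe sets of Gpm6a and Tmem255a were lower in tissue replicate 3, as Abi3bp was. All points share their arrays and their scaling, and the choice of the genes had set a gap of at least 16-fold between tissue and 2D in each of them, which brings their patterns closer together.

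Other genes were also ordered by likeness to each of the 4, which were themselves left out of these orders. Most like Gpm6a in pattern were Stk26 (0.369), Vwc2 (0.424), Dpt (0.572), Fras1 (0.582) and H2-Aa (0.609). Those most like Chodl were Stk26 (0.388), Vwc2 (0.438), Fras1 (0.566), Dock9 (0.577) and Cdh1 (0.602). Tmem255a was most like Cdh1 (0.449), followed by Gng4 (0.621), Fmn1 (0.693), Vwc2 (0.757) and Tenm2 (0.762). Abi3bp was most like Dpt (0.535), Ecm2 (0.569), Cldn1 (0.582), Mcf2 (0.590) and Fmo1 (0.642). The levels were centred and not scaled, so that a gap of like size between tissue and culture by itself brings a gene near. That gap chose the 4 genes, and Cdh1, Tenm2 and Cldn1 lay inside the same 16-fold limit. Cdh1, E-cadherin, read 8.88, 9.59, 9.65 and 8.90 in tissue, 3.96, 4.39, 3.93 and 3.97 in 3D and 4.52, 3.55, 5.07 and 3.92 in 2D. It had the same high pair of tissue replicates as the brightest Tmem255a probe set, which the other probe sets of that gene did not have. Dpt, dermatopontin, is a matrix protein of fibroblasts, and its difference from 2D was 3.78.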

How the data were processed

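Messenger RNA of SCG tissue, of SCG cells in 3D and of SCG cells in 2D was measured on 12 arrays. The authors deposited log2 expression values made with RMA in Affymetrix Expression Console (background adjustment, quantile normalization, summarization per probe set); which version was used is not stated. Scanner files were not used here, so scan batches were not tested, and 0 sample columns were left unused. Quantile normalization hides a shift shared by most genes.

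The 4 genes and all gene lists were chosen with earlier results of these data known. Control probe sets, 64 in number, entered no test. Of 45037 probe sets, 34945 carry 1 symbol, 932 several, and 9160 are unnamed here. A gene was taken at its brightest probe set, by the mean of all 12 arrays. Groups were compared in pairs, 8 arrays to a fit, by lmFit and eBayes (limma 3.58.1 under R 4.3.3), with Benjamini-Hochberg adjustment over all 45037 and a threshold of 0.05. Intervals and standard errors come from that fit. Exact permutation tests were two-sided over the 70 splits. No p is given where tissue and the 4 genes meet, since that contrast chose them. Replicates are called biological in the labels, with no word on shared litters. Genes named beyond the 4 are the other family genes, genes of the lists by smallest adjusted p (Mmp9 was named after its value was seen), the 5 nearest patterns of each gene and those at the 16-fold limit. The fit was tested on simulated data. Alternatives were 1 fit of all arrays, array weights, a trended robust prior, a filter on dim probe sets (those reaching a log2 of 6 on 4 or more arrays were kept), centring on bright probe sets, cyclic loess, a replicate block, the mean or the most variable probe set of a gene, the t-test of the methods, leaving out each array, tissue replicate 1 alone, and the cultures without 2D replicate 4 and 3D replicate 1. The setting with tissue replicates 1 and 4 alone was chosen after seeing the data. Figures were drawn with matplotlib 3.10.9.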

Additional observations from a re-analysis of the deposited data

How the results depend on the processing

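All 4 genes stayed higher in tissue than in either culture under every alternative run, and no tissue difference of theirs turned. The genes were chosen for this rise, and every tissue array stood above every culture array. Leaving out or weighting arrays could therefore not have turned it, and only the sizes are informative. Averaging the probe sets of a gene lowered the difference from 2D to 2.91 for Gpm6a and 2.85 for Tmem255a, and that from 3D to 2.59 and 2.84. With tissue replicate 1 alone, Abi3bp differed by 5.45 from 2D and 4.79 from 3D, and Chodl by 3.61 from 3D. With tissue replicates 1 and 4 alone, chosen after the data had been seen, Chodl differed by 3.62 from 2D and 3.59 from 3D, Abi3bp by 5.12 and 4.47, and Tmem255a by 3.82 from 3D. Between 3D and 2D, Tmem255a turned from -0.08 to 0.11 with array weights and to 0.011 with the mean of its probe sets (and to -0.40 without 2D replicate 4 and 3D replicate 1), and leaving out single arrays gave -0.375 to 0.205. For Chodl leaving out single arrays gave -0.0375 to 0.1225. Gpm6a passed by the methods' t-test without adjustment (0.36, p = 0.00276, beside an exact permutation p of 0.0286) and by no other alternative. The replicate numbers were not taken as pairs, since 7 of 12 correlations of same-numbered deviations, and not all, were over 0.1 (range -0.07 to 0.41) and no label ties the numbers together. A replicate block changed no call of the 4 genes (adjusted p = 0.226 for Gpm6a in 3D against 2D) and ended that of Tnxb in tissue against 3D, as did the methods' t-test after adjustment (0.106).

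Of all genes, 4393 passed between tissue and 2D, 7172 with 1 fit of all 12 arrays, 2668 by the methods' t-test (6681 unadjusted), 890 with tissue replicate 1 alone (an arm of 1 array, assumed to vary like 2D), 2574 without 2D replicate 4 and 3D replicate 1, and 2369 to 5135 leaving out single arrays (2369 without tissue replicate 2, 2423 without 2D replicate 2). Between 3D and 2D, 3 genes passed (1377 higher at an unadjusted p under 0.05), 312 with array weights, 0 with the replicate block, 0 by the methods' t-test (2118 unadjusted), 1357 without 2D replicate 4 and 3D replicate 1, and 0 to 123 leaving out single arrays (123 without 2D replicate 4). Of the related and marker genes, 78 passed between tissue and 2D, 35 with tissue replicate 1 alone and 54 to 88 leaving out single arrays; between 3D and 2D 0 passed, 3 with array weights, 16 by the methods' t-test without adjustment, 42 without 2D replicate 4 and 3D replicate 1, and 0 to 5 leaving out single arrays. Centring on bright probe sets moved the median difference of all genes in tissue to 0.31 and the share higher among genes past the threshold against 2D to 61.6%, compared with 40.9%, and against 3D to 60.6%, compared with 43.5%; cyclic loess gave 52.3% in both. Of 5014 values of named genes under the alternatives, 163 lost a call, 74 gained one and 0 turned a called direction. A dim probe set such as those of Gpm6a in culture lies near the floor of the scale, which limits how large a fold can be read.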
